A study of Mus musculus with 24 samples.

Results

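Programmed cell death was followed through 9 of its genes across mouse livers exposed to ethanol. Of these, 6 belong to the mitochondrial and death receptor arms of apoptosis that act before the executioner caspases (Bcl2l1, Mcl1, Bax, Bcl2l11, Pmaip1 and Fas), and Casp8, Ripk1 and Ripk3 stand where death receptor signals divide between apoptosis and necroptosis. All probes whose accession on the array design maps to one of these symbols were taken, which gave 15 of 41174 probes and 9 of the 16166 genes with a usable probe. The livers came from male C57BL/6N mice, whose age was not given in the sources used here. The 10-day groups were E10d1B, fed an ethanol diet for 10 days and given 1 ethanol binge of 5 g/kg (n = 3), and P10d, pair-fed for 10 days (n = 3). The 8-week groups were E8wMB, fed the ethanol diet for 8 weeks with binges of 5 g/kg at 2 per week (n = 4), E8w1B, fed the diet for 8 weeks and given 1 such binge (n = 5), E8w, fed the diet for 8 weeks without a binge (n = 5), and P8w, pair-fed for 8 weeks (n = 4). The pair-fed groups are the controls.

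In the mitochondrial arm, BAX and its relative BAK open pores in the outer mitochondrial membrane and release cytochrome c. BCL-XL, the product of Bcl2l1, and MCL-1 hold the pore formers back, while BH3-only proteins such as BIM (Bcl2l11) and NOXA (Pmaip1) bind these guardians and free the pore formers. Death receptors such as FAS recruit caspase-8, which starts the caspase cascade and also cleaves RIPK1 and RIPK3, the kinases that otherwise drive the lytic death called necroptosis. Hepatocytes carry FAS and depend on BCL-XL and MCL-1 for survival, as knockout mice have shown.

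Each liver RNA was labelled with Cy5 and hybridised beside a Cy3-labelled reference RNA on 1 array, and levels are given as log2 Cy5/Cy3, so that 0 means equal signal in the liver and in the reference. Per the labels the reference is a commercial mixture of mouse tissue RNA, although liver is also entered for that channel, and what it was made of could not be settled. Median spot intensity per array was 95.5 to 247 in Cy5 and 161.5 to 505 in Cy3, and 70.4% to 86.7% of probes were well above background in Cy5. The arrays were scanned on 3 occasions. The first held P8w, E8w and E8w1B, the second held both 10-day groups and the third held E8wMB alone. The same reference correlated between arrays of the first scan with a median r of 0.982, and between the first and the third scan with 0.906. For E8wMB, the scan and the group therefore cannot be told apart, and its main ratio differences are given beside the channels alone. Scan and feeding length likewise cannot be told apart in P8w against P10d. With median centring in place of loess the median of all genes in E8wMB moved to -0.11 against P8w, -0.11 against E8w and -0.14 against E8w1B, so values of that group under median centring are read against these shifts. Nothing in the labels says whether replicates are different animals, and the p-values reflect the spread between samples alone. In pieces of whole liver, fewer cells of a type and less RNA per cell cannot be told apart.

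**Figure D1:**
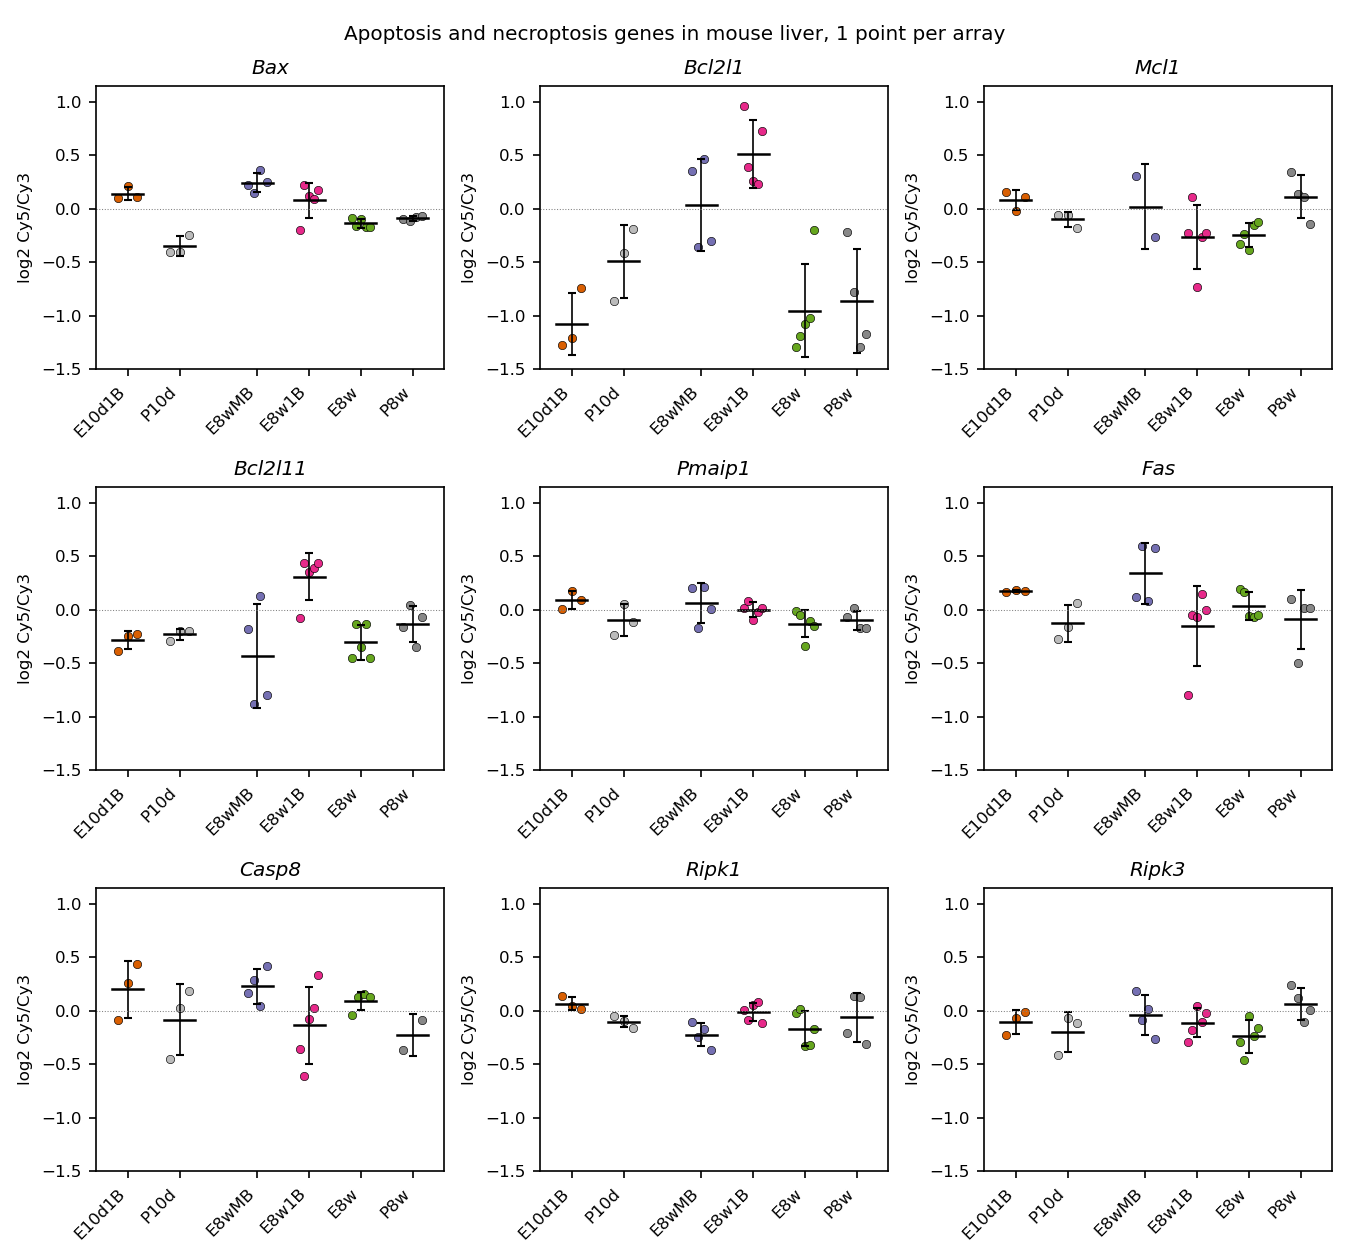
Log2 Cy5/Cy3 (vertical axis) of the 9 genes, 1 panel per gene, with 1 point per array in the groups E10d1B, P10d, E8wMB, E8w1B, E8w and P8w, and the mean ± SD as a bar. Bcl2l1 is high on all 5 E8w1B arrays (0.23 to 0.96), and Bax is high on all 3 E10d1B arrays (0.10 to 0.21) against P10d (-0.40 to -0.24).

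Bcl2l1 (BCL-XL) and Bcl2l11 (BIM) rose in E8w1B livers against E8w livers, by 1.47 and 0.61 on the log2 scale, although 1 of 3 Bcl2l1 probes did not follow. Bax rose in E10d1B livers against P10d livers, by 0.49, and in E8wMB livers against E8w and P8w livers, by 0.38 and 0.33. In E8wMB livers Bcl2l1 (against E8w and P8w) and Fas (against E8w1B) also passed as ratios, but on the probes used for these genes the liver channel alone did not differ that way. In E8w livers, with the ethanol diet and no binge, limma called none of the 9 against P8w. Bax, Bcl2l1, Bcl2l11 and Fas, 4 of the 9, passed in at least 1 of 9 comparisons, and Mcl1, Pmaip1, Casp8, Ripk1 and Ripk3 passed in none. The share of all genes that passed in at least 1 comparison was not counted, and single comparisons called 0.153% to 29.5% of all genes. The count of 4 is therefore a description and not a result about the 9. A gene passed when limma's moderated test over all 24 arrays gave a Benjamini-Hochberg adjusted p under 0.05 over all genes tested. Comparisons with P8w or with E8w share those arrays, so their values are set side by side and not counted as separate evidence.

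In E10d1B against P10d, 1 of 9 genes passed, against 7.18% of all genes tested. The median difference of the 9 was 0.18 on the log2 scale, beside -0.0048 over all genes. In E8w against P8w, limma called 0 of 9, against 0.153% of all genes, and 2 had an unadjusted p under 0.05. In E8w1B against P8w, 1 of 9 passed (16.3% of all genes), and in E8w1B against E8w, 3 of 9 passed (16.4% of all genes), with medians of 0.09 and 0.13 beside 0.02 and 0.01 over all genes. The repeated-binge group gave 2 of 9 genes against P8w (20.6% of all genes), 2 against E8w (25.0%) and 2 against E8w1B (29.5%). The comparison of pair-fed livers, P8w against P10d, called 0 of 9 (1.51% of all genes), with 2 at an unadjusted p under 0.05. The difference between the 8-week and the 10-day effect of ethanol plus 1 binge was called for 1 of 9, against 3.35% of all genes.

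The liver channel alone, without division by the reference, gave other counts. In Cy5 alone 0 of 9 genes passed in E10d1B against P10d (2.69% of all genes; Bax had an adjusted p of 0.0544) and 0 of 9 in E8w against P8w (0.0892%). Bcl2l1 was the 1 gene that passed in E8w1B against P8w (9.07% of all genes), in E8w1B against E8w (8.70%) and in the difference between the 8-week and 10-day effects (1.23%), and Mcl1 the 1 gene in P8w against P10d (8.35%). P8w and P10d lay in different scans. There Mcl1 was also higher in Cy3 alone (mean 11.35 against 10.87), and its ratio difference of 0.21 did not pass. In the repeated-binge group Bax, Pmaip1, Ripk1 and Ripk3 passed against P8w (50.5% of all genes), Bax, Pmaip1 and Ripk1 against E8w (53.0%), and Bcl2l1, Bcl2l11, Pmaip1 and Ripk1 against E8w1B (52.6%). The Pmaip1 probe was kept only through its signal in E8wMB, so its calls here are not independent of the probe filter. Over all genes, the Cy5 and Cy3 differences of the repeated-binge group correlated with r between 0.86 and 0.89. The r was 0.79 for P8w against P10d, and 0.36 and 0.25 for E8w1B against P8w and E8w. These correlations describe genes within the same arrays.

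**Figure D2:**
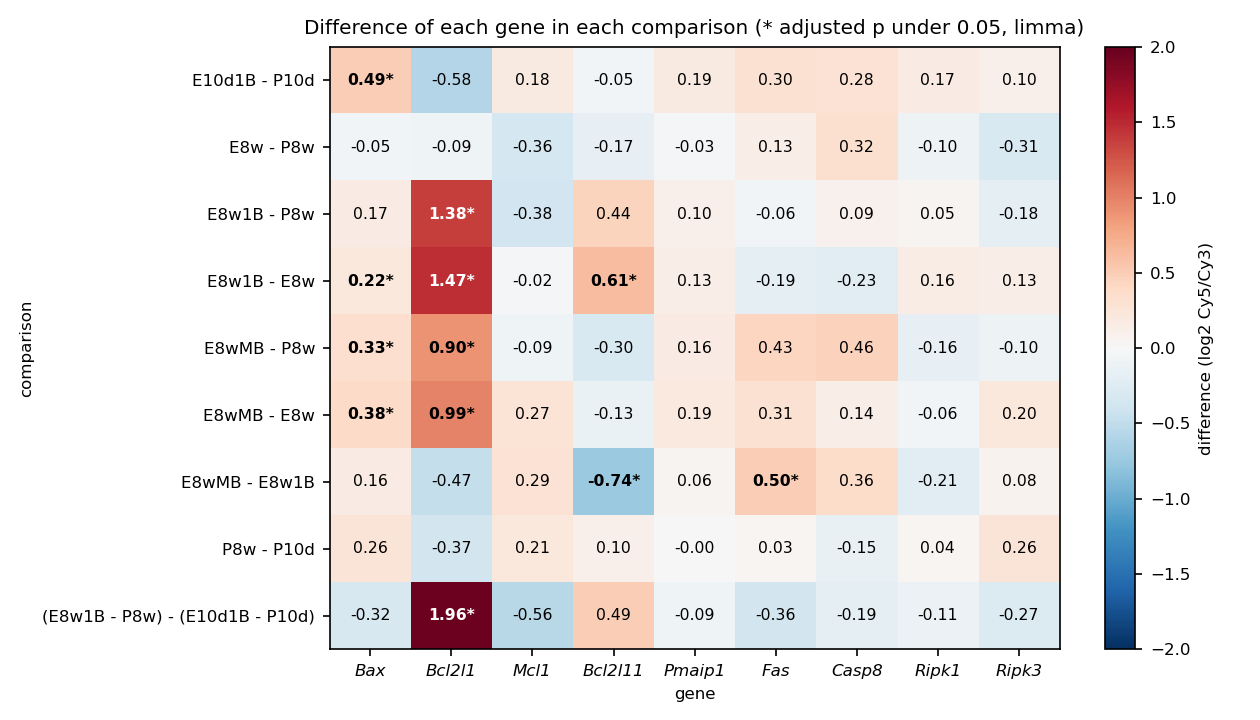
Difference in log2 Cy5/Cy3 of each of the 9 genes (horizontal) in each of the 9 comparisons (vertical), coloured by size and direction, with a star where the adjusted p is under 0.05. The largest stars by size are those of Bcl2l1 in E8w1B (1.38 against P8w and 1.47 against E8w) and in the difference between the 8-week and 10-day effects (1.96).

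The base sequence around the start sites is shown for Bcl2l1, Bcl2l11 and Bax, which were higher as ratios in E8w1B than in E8w, to show how unlike these promoters are. The windows run from 250 bases before to 50 bases after each RefSeq start, from RefSeq on GRCm38.p6. For 8 of the 9 genes 12 windows were taken, and Pmaip1 was left out by rule. Capitals mark matches, on either strand, to the letters of motifs named for STAT (TTCNNNGAA), AP-1 (TGANTCA), FOXO (GTAAACA), C/EBP (TTGCNNAA), CRE (TGACGTCA), GC box (GGGCGG) and CCAAT box (CCAAT). The Bax window on the minus strand at chr7:45466849-45467148 holds 3 GC boxes, the Bcl2l11 window on the plus strand at chr2:128125788-128126087 holds 1 FOXO match, 3 GC boxes and 1 CCAAT box read as ATTGG, and the Bcl2l1 window on the minus strand at chr2:152831679-152831978 holds none of the 7. No printed match overlaps another.
Bcl2l1: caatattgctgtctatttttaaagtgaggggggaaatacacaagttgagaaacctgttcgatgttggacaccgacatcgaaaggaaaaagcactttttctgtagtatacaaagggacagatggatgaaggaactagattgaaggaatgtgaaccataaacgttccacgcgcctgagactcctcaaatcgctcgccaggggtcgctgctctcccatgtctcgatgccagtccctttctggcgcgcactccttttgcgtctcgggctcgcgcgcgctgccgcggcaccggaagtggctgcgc
Bcl2l11: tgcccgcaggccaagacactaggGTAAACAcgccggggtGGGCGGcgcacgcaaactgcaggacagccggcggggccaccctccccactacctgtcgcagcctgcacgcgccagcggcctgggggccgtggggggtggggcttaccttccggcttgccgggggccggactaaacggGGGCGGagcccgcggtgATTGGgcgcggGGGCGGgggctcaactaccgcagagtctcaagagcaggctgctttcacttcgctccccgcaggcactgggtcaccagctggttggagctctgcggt
Bax: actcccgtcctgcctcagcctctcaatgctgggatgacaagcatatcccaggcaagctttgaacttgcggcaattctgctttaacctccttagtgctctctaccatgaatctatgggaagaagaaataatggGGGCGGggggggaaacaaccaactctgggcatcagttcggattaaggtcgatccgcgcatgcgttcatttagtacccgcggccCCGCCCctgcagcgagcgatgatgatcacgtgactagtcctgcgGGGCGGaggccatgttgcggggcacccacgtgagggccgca

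Of all 32851 windows in the RefSeq table, 35.7% hold a GC box, 37.4% a CCAAT box, 10.8% the C/EBP letters, 8.30% the STAT letters, 7.81% the AP-1 letters, 3.65% the FOXO letters and 1.79% the CRE letters. The other 2 Bcl2l1 windows hold none of the 7 either. GC content was 52.3% in the printed Bcl2l1 window, 71.0% in that of Bcl2l11 and 57.3% in that of Bax, beside a median of 52.7% over all windows. A match is a description of letters and not a bound site.

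Bcl2l1 encodes BCL-XL and its short antagonist BCL-XS by splicing, and lies at chr2:152758732-152833803 in GRCm38.p6. On the probe used for the gene, A_52_P510877, log2 Cy5/Cy3 was 0.96, 0.39, 0.26, 0.23 and 0.73 on the E8w1B arrays, against -1.29, -1.19, -1.08, -1.02 and -0.20 in E8w and -0.21, -0.78, -1.29 and -1.17 in P8w. Every E8w1B array stood above every array of E8w and P8w. The difference was 1.47 ± 0.23 from E8w (SE, 2.77-fold, limma adjusted p = 7.13e-05) and 1.38 ± 0.24 from P8w (2.60-fold, adjusted p = 0.000281). It lay in the liver channel: Cy5 alone differed by 1.64 and 1.49, and Cy3 alone by 0.17 and 0.11. Within slides the difference from E8w was positive on 5 of 5 slides (0.43 to 2.25) and from P8w on 4 of 4 (0.45 to 1.90). The lowest value of both ranges came from the slide that held E8w replicate 5, P8w replicate 1 and E8w1B replicate 4.

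At 10 days the same gene did not move this way. Log2 Cy5/Cy3 of Bcl2l1 was -1.27, -1.21 and -0.74 in E10d1B, against -0.86, -0.42 and -0.19 in P10d, and the highest E10d1B array stood above the lowest P10d array. The difference was -0.58 ± 0.29 (95% interval -1.19 to 0.02, limma adjusted p = 0.273). The 8-week effect exceeded the 10-day effect by 1.96 ± 0.38 (95% interval 1.18 to 2.74, adjusted p = 0.00307), and by 2.04 with slide as a block (adjusted p = 0.0335). Both effects were taken within a scan. Feeding ethanol for 8 weeks without a binge gave a Bcl2l1 difference of -0.09 from P8w (adjusted p = 0.985).

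In the repeated-binge livers Bcl2l1 was at 0.35, -0.36, 0.47 and -0.30, arrays 1 and 3 above all E8w and P8w arrays and arrays 2 and 4 below the highest of each. The ratio was 0.99 ± 0.24 higher than in E8w (limma adjusted p = 0.00444) and 0.90 ± 0.25 higher than in P8w (adjusted p = 0.0139). Cy5 alone did not carry this: it differed by -0.04 and -0.19, while Cy3 alone differed by -1.03 and -1.10. The call against P8w was lost with median centring (0.68, adjusted p = 0.0681), without P8w replicate 3 (0.76, adjusted p = 0.0576) and without E8wMB replicate 3 (0.76, adjusted p = 0.0556). Against E8w1B the ratio difference was -0.47 (adjusted p = 0.139), with Cy5 at -1.68 and Cy3 at -1.21, and with median centring it passed (-0.72, adjusted p = 0.0334).

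From high to low, the group means on this probe were 0.52 ± 0.32 in E8w1B, 0.04 ± 0.43 in E8wMB, -0.49 ± 0.34 in P10d, -0.86 ± 0.49 in P8w, -0.95 ± 0.44 in E8w and -1.07 ± 0.29 in E10d1B (SD), the last 3 within 1 SD of each other. The promoter of this gene printed above, unlike those of Bcl2l11 and Bax, holds none of the letters searched.

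The 3 Bcl2l1 probes disagreed. A_52_P148861 followed the first in E8w1B, with values of 1.01, 0.49, 0.41, 0.08 and 0.68, against -0.70, -0.65, -0.71, -0.69 and -0.25 in E8w and -0.06, -0.45, -0.65 and -0.46 in P8w. Its differences were 1.13 ± 0.18 and 0.94 ± 0.19 (adjusted p over all kept probes 0.000138 and 0.00168), again with no overlap of arrays. In E8wMB this probe gave 0.81 ± 0.19 against E8w (adjusted p = 0.0032) and 0.62 ± 0.20 against P8w (adjusted p = 0.0318), here with Cy5 alone at 0.76 and 0.66 and Cy3 alone at -0.055 and 0.04. A_51_P299454, the brightest of the 3, stayed between -0.43 and 0.36 on the 14 arrays where its spot was not marked by the scanner software, which included 4 E8w1B arrays (0.05, -0.31, -0.03 and 0.22), 1 P8w array (-0.43) and no E8w array. With marked spots kept, that probe becomes the one used for the gene. Its difference for E8w1B was then 0.27 from P8w (adjusted p = 0.0655) and 0.094 from E8w (adjusted p = 0.595). Which transcripts each probe reads was not tested.

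**Figure D3:**
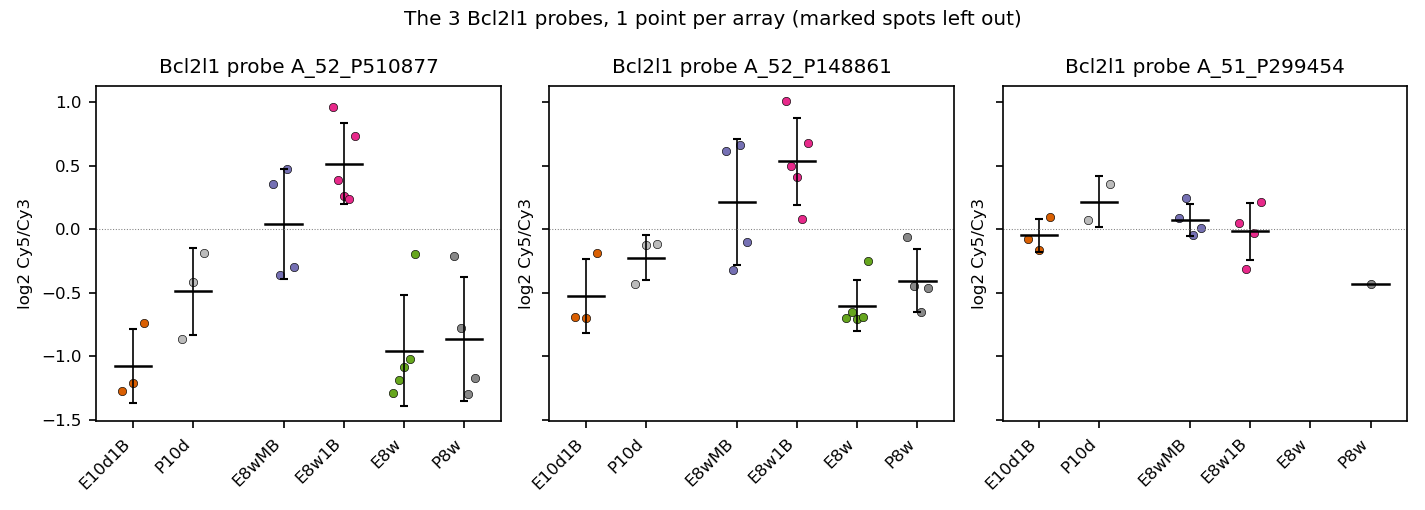
Log2 Cy5/Cy3 (vertical axis) of the 3 Bcl2l1 probes in each of the 6 groups, 1 point per array with the mean ± SD, arrays with a marked spot left out. On A_52_P510877 and A_52_P148861 the E8w1B arrays lie above all E8w and P8w arrays, and on A_51_P299454 all measured arrays lie between -0.43 and 0.36.

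Mcl1, the gene of the short-lived guardian MCL-1 (chr3:95656944-95663179), had no difference past the test. It was at -0.22, 0.11, -0.73, -0.26 and -0.23 in E8w1B, at -0.33, -0.24, -0.39, -0.15 and -0.12 in E8w, and at 0.35, 0.14, 0.11 and -0.15 in P8w. Most arrays of both ethanol groups stood below most pair-fed arrays, with overlap at the edges. The differences from P8w were -0.38 in E8w1B (adjusted p = 0.0578) and -0.36 in E8w (adjusted p = 0.485). Without P8w replicate 4 or without E8w1B replicate 2, the first passed (-0.47 in both, adjusted p = 0.0333 and 0.0138), as it did with no background subtraction (-0.39, adjusted p = 0.0468) and with slide as a random block (-0.38, adjusted p = 0.0408). In E8wMB the probe was measured on arrays 1 and 4 (0.30 and -0.26). The second Mcl1 probe, A_52_P93933, was measured on all 24 arrays and ran the other way in E8w1B, at 0.20, 0.39, -0.03, 0.08 and 0.11 in E8w1B, against -0.32, -0.16, 0.02, -0.08 and 0.16 in E8w and 0.01, -0.06, 0.08 and 0.06 in P8w. Its differences from P8w were 0.13 in E8w1B (adjusted p = 0.708) and -0.098 in E8w (adjusted p = 0.989), so that the probes disagree in direction for E8w1B. In E8wMB against E8w it gave 0.11 as a ratio, with Cy5 alone at 1.47 and Cy3 alone at 1.37. At 10 days Mcl1 was at 0.16, -0.02 and 0.11 in E10d1B, against -0.06, -0.06 and -0.18 in P10d.

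Bcl2l11, whose product BIM is a BH3-only protein that binds all pro-survival BCL-2 proteins (chr2:128126038-128162547), rose in E8w1B. Its log2 Cy5/Cy3 was -0.08, 0.44, 0.35, 0.39 and 0.44 on the E8w1B arrays, against -0.45, -0.13, -0.35, -0.13 and -0.45 on the E8w arrays and -0.16, 0.04, -0.35 and -0.06 in P8w. All E8w1B arrays were above all E8w arrays, and E8w1B replicate 1 alone fell inside the P8w range. The difference was 0.61 ± 0.15 from E8w (1.53-fold, limma adjusted p = 0.00465), positive on 5 of 5 slides, with Cy5 alone at 0.59 (adjusted p = 0.0807). From P8w it was 0.44 (adjusted p = 0.0551), and it passed without E8w1B replicate 1 (0.54, adjusted p = 0.0183), with no background subtraction (0.49, adjusted p = 0.0388), with slide as a random block (0.45, adjusted p = 0.0361) and with only the groups compared in the fit (adjusted p = 0.0449). The second Bcl2l11 probe gave 0.31 against E8w (adjusted p = 0.116). At 10 days the groups were close, at -0.38, -0.25 and -0.22 in E10d1B, against -0.29, -0.20 and -0.20 in P10d.

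Bcl2l11 stood lower in the repeated-binge livers than after 1 binge. The E8wMB arrays were at -0.18, -0.88, 0.13 and -0.80, so that array 3 alone overlapped the E8w1B range, and the difference was -0.74 ± 0.15 (limma adjusted p = 0.00123). Cy5 alone gave -0.66 (adjusted p = 0.0146) and Cy3 alone 0.08. On the second probe it was -0.23 (adjusted p = 0.188), and with the scanner software's own log ratio -0.56 (adjusted p = 0.107). Against P8w the E8wMB difference was -0.30 (adjusted p = 0.2), with Cy5 alone at -0.12 and Cy3 alone at 0.18. It passed without E8wMB replicate 3 (-0.49, adjusted p = 0.028) and with median centring (-0.53, adjusted p = 0.0411).

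Pmaip1 encodes NOXA, a BH3-only protein that neutralises MCL-1, and its probe was close to background. Its Cy5 signal was well above background on 3 of 24 arrays, E8wMB replicates 1, 2 and 3, and was not well above background on any array of the other 5 groups. The filter asked for 3 such arrays, so the probe was kept through E8wMB alone. A higher Cy5 signal in that group is tied to this choice, and the bounds that follow are a description. In Cy5 alone E8wMB was at least 1.21-fold higher than E8w, at least 1.32-fold higher than P8w and at least 1.32-fold higher than E8w1B, each bound set against the higher, on each array, of that group's own signal and the dimmest signal that counted as above background. Cy3 alone also stood higher in E8wMB, by 0.33, 0.36 and 0.34, and the ratio, between -0.33 and 0.22 on all arrays, did not pass in any comparison. With median centring in place of loess the ratio of E8wMB passed in all 3 comparisons, at 0.46 from P8w, 0.51 from E8w and 0.40 from E8w1B (adjusted p = 0.0143, 0.0046 and 0.018), beside 0.16, 0.19 and 0.06 with loess. Without E8wMB replicate 2 the ratio difference from E8w passed with loess too (0.27, adjusted p = 0.0303). As the probe was kept only through E8wMB, these ratio calls are not independent of the filter either and are a description.

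Bax, the pore-forming effector itself (chr7:45461695-45466903), rose in E10d1B. Log2 Cy5/Cy3 was 0.10, 0.21 and 0.11 in E10d1B, against -0.40, -0.40 and -0.24 in P10d. The groups did not overlap, and the difference was 0.49 ± 0.09 (1.41-fold, limma adjusted p = 0.00143). It was positive on both slides that held the 2 groups (0.36 and 0.61), and remained at 0.49 with slide as a block (adjusted p = 0.0355). Cy5 alone gave 0.45 (adjusted p = 0.0544) and Cy3 alone -0.04, and with median centring in place of loess the difference was 0.51 (adjusted p = 0.0971).

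At 8 weeks Bax was at 0.22, 0.15, 0.36 and 0.25 in E8wMB and at -0.20, 0.22, 0.12, 0.09 and 0.17 in E8w1B, against -0.08, -0.16, -0.10, -0.17 and -0.17 in E8w and -0.10, -0.11, -0.07 and -0.06 in P8w. All E8wMB arrays stood above all E8w and P8w arrays. In E8w1B, 4 of 5 arrays did and replicate 1 was the lowest of all these arrays. The E8wMB differences were 0.38 ± 0.075 from E8w (1.30-fold, limma adjusted p = 0.00105) and 0.33 ± 0.08 from P8w (1.26-fold, adjusted p = 0.0053), and Cy5 alone gave 0.49 and 0.48. Cy3 alone gave 0.11 and 0.15 (adjusted p = 0.231 and 0.141). Cy5 alone passed in both comparisons (adjusted p = 0.00038 and 0.000908), where 53.0% and 50.5% of all genes passed in Cy5 alone and the group had a scan of its own. With median centring in place of loess the ratio differences of Bax were 0.16 and 0.096 (adjusted p = 0.38 and 0.637). Against E8w1B the Bax ratio of E8wMB passed with the scanner software's log ratio and with the deposited values (0.25 in both, adjusted p = 0.0407 and 0.0403).

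After 1 binge at 8 weeks the Bax difference was 0.22 ± 0.07 from E8w (1.16-fold, limma adjusted p = 0.0386) and 0.17 from P8w (adjusted p = 0.142). The first lost its call with slide as a block (0.22, adjusted p = 0.0613), and when any of E8w replicates 2 to 5 or E8w1B replicates 2 to 5 was left out, with values between 0.18 and 0.23. It was also lost with median centring (0.28, adjusted p = 0.178), with the scanner software's log ratio (0.25, adjusted p = 0.054), with the deposited values (adjusted p = 0.0536), with only the groups compared in the fit (adjusted p = 0.135) and with every probe tested (adjusted p = 0.0513). Without E8w1B replicate 1 the difference from P8w passed (0.24, adjusted p = 0.014), and that from E8w was 0.29. The effect of ethanol plus 1 binge at 8 weeks differed from that at 10 days by -0.32 ± 0.12 (adjusted p = 0.159). From high to low, Bax means were 0.25 ± 0.09 in E8wMB, 0.14 ± 0.06 in E10d1B, 0.08 ± 0.17 in E8w1B, -0.09 ± 0.02 in P8w, -0.13 ± 0.04 in E8w and -0.35 ± 0.09 in P10d (SD).

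**Figure D4:**
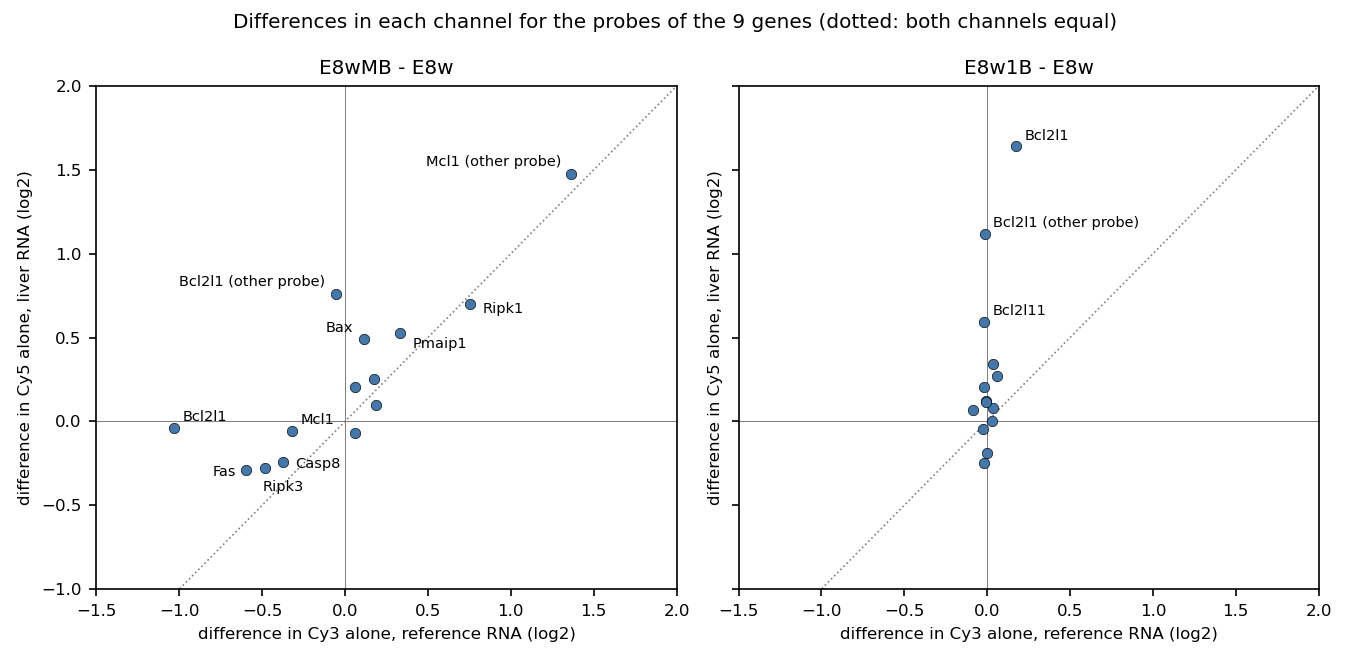
Difference of each probe of the 9 genes in Cy5 alone (vertical axis) against Cy3 alone (horizontal axis), both log2, for E8wMB minus E8w (left) and E8w1B minus E8w (right). On the left the points spread along the diagonal, as Ripk1 does (0.70 in Cy5 and 0.75 in Cy3), and on the right they stay near 0 in Cy3 while Bcl2l1 reaches 1.64 in Cy5.

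Fas, the death receptor (chr19:34290647-34327775), was at 0.17, 0.18 and 0.17 in E10d1B, against -0.27, -0.16 and 0.07 in P10d, a difference of 0.30 that did not pass (adjusted p = 0.434). At 8 weeks it was at 0.12, 0.60, 0.08 and 0.58 in E8wMB and at -0.80, -0.05, -0.06, 0.15 and -0.00 in E8w1B, against 0.20, 0.17, -0.06, -0.07 and -0.05 in E8w and 0.10, -0.50, 0.02 and 0.02 in P8w. Arrays 2 and 4 of E8wMB stood above all others, and E8w1B replicate 1 and P8w replicate 2 well below. The 1 difference that passed was E8wMB against E8w1B, at 0.50 ± 0.16 (1.41-fold, limma adjusted p = 0.0208). In Cy5 alone it was -0.10, while Cy3 alone gave -0.59. The call was lost without E8w1B replicate 1 (0.33, adjusted p = 0.0638), without E8wMB replicate 2 (0.41, adjusted p = 0.0815), without E8wMB replicate 4 (0.42, adjusted p = 0.0873), with median centring (0.22, adjusted p = 0.391) and with only the groups compared in the fit (0.50, adjusted p = 0.0878). Against P8w, E8wMB was 0.43 higher (adjusted p = 0.0655), with Cy5 alone at -0.10 and Cy3 alone at -0.53, and passed without E8wMB replicate 3 (0.52, adjusted p = 0.0474).

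Casp8 encodes caspase-8, the initiator caspase that FAS recruits (chr1:58795233-58847503). It was measured on 21 arrays, and 2 of the missing arrays were P8w. Its values were 0.17, 0.29, 0.04 and 0.42 in E8wMB, -0.35, -0.61, -0.07, 0.03 and 0.33 in E8w1B, -0.03, 0.13, 0.15 and 0.13 in E8w, and -0.37 and -0.09 in P8w. E8wMB lay above both P8w arrays, and E8w1B spanned the ranges of E8w and P8w. In the fit over all arrays no difference of Casp8 passed. E8wMB against P8w stood at 0.46 (adjusted p = 0.121), with Cy5 alone at 0.05 and Cy3 alone at -0.41. That difference passed with only the groups compared in the fit (adjusted p = 0.0483). E8wMB against E8w1B gave 0.36 (adjusted p = 0.0916), with Cy5 alone at 0.0094 and Cy3 alone at -0.36, and passed without E8w1B replicate 5 (0.48, adjusted p = 0.0219). At 10 days Casp8 was at -0.08, 0.26 and 0.44 in E10d1B, against -0.45, 0.03 and 0.18 in P10d, which overlapped.

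Ripk1, the kinase at the branch between survival, apoptosis and necroptosis (chr13:34002225-34035170), was at -0.11, -0.25, -0.17 and -0.36 in E8wMB, at 0.01, -0.09, 0.06, 0.09 and -0.11 in E8w1B, at -0.02, 0.01, -0.33, -0.32 and -0.17 in E8w, and at -0.20, 0.14, 0.13 and -0.31 in P8w. The groups overlapped, E8wMB and E8w1B only narrowly, at -0.11. No ratio passed with loess, and neither of its other probes passed in any comparison. With median centring E8wMB was lower than P8w (-0.40, adjusted p = 0.0377) and E8w1B (-0.50, adjusted p = 0.00578), beside -0.16 and -0.21 with loess. The channels alone moved together: in E8wMB, Cy5 was 0.70 higher than in E8w (adjusted p = 1.44e-06) and Cy3 0.75 higher, so the ratio differed by -0.06. At 10 days Ripk1 was at 0.14, 0.05 and 0.02 in E10d1B, against -0.05, -0.09 and -0.16 in P10d, without overlap and without passing the test.

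Ripk3, the kinase that phosphorylates the necroptosis executioner MLKL (chr14:55784995-55788857), was at 0.19, -0.08, 0.02 and -0.26 in E8wMB, at -0.30, -0.18, 0.05, -0.11 and -0.02 in E8w1B, at -0.29, -0.46, -0.04, -0.24 and -0.16 in E8w, and at 0.24, 0.12, -0.10 and 0.01 in P8w. In E8w, 4 of 5 arrays stood below every P8w array. That difference was -0.31 (unadjusted p = 0.00741) and did not hold after adjustment (adjusted p = 0.388). At 10 days Ripk3 was at -0.23, -0.06 and -0.01 in E10d1B, against -0.41, -0.06 and -0.12 in P10d.

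Of 44 further genes of the same pathways, in lists chosen with earlier results of these data known, 40 could be tested. In E8w1B against E8w, 6 were higher and 1 lower, 7 of 40 where 16.4% of all genes passed (median of the 40 0.03, beside 0.01 over all genes). Against P8w, 6 were higher and 3 lower, 9 of 40 where 16.3% of all genes passed (median -0.04, beside 0.02). Both counts are given as a description, near the share over all genes. Among the death ligands and receptors, Tnfrsf1a, the main TNF receptor, rose in E8w1B, which ranged over 0.15 to 0.72, against -0.50 to -0.21 in E8w and -0.41 to -0.18 in P8w. Its differences were 0.80 ± 0.11 from both (limma adjusted p = 1.46e-05 from E8w and 2.93e-05 from P8w), with Cy5 alone at 0.83 and 0.87. Tnfrsf1a also rose in E10d1B by 0.72 ± 0.14 against P10d (adjusted p = 0.00182).

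Bak1, the other pore-forming effector, moved in the direction of Bcl2l11. It was at 0.06 to 0.32 in E8w1B, against -0.58 to -0.30 in E8w and -0.53 to 0.06 in P8w, higher by 0.65 ± 0.13 (adjusted p = 0.000936) and 0.55 ± 0.13 (adjusted p = 0.00589). Among BH3-only genes, Bbc3, which encodes PUMA, was 0.30 higher in E8w1B than in E8w (adjusted p = 0.00755), Bik was 0.36 higher than in P8w (adjusted p = 0.0459), and Bad was lower than in both, by -0.30 and -0.32 (adjusted p = 0.0407 and 0.0408). Among adaptors and brakes, Cflar, which encodes the caspase-8 inhibitor c-FLIP, fell by 0.58 in E8w1B against P8w (adjusted p = 0.00529). Its differences of -0.26 in E8w1B against E8w and -0.32 in E8w against P8w did not pass. Tnip1, which restrains TNF signalling, was 0.42 higher in E8w1B than in E8w and 0.39 higher than in P8w. Of the necroptosis genes, Ticam1, the TLR3 adaptor TRIF, was 0.43 higher than in E8w and 0.54 higher than in P8w, and Mlkl was 0.29 higher than in E8w (adjusted p = 0.0391). Traf2, a TNF receptor adaptor, was 0.26 higher than in P8w (adjusted p = 0.0387), and Htra2, a mitochondrial protease that counters IAP proteins, fell by 0.26 (adjusted p = 0.0383).

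**Figure D5:**
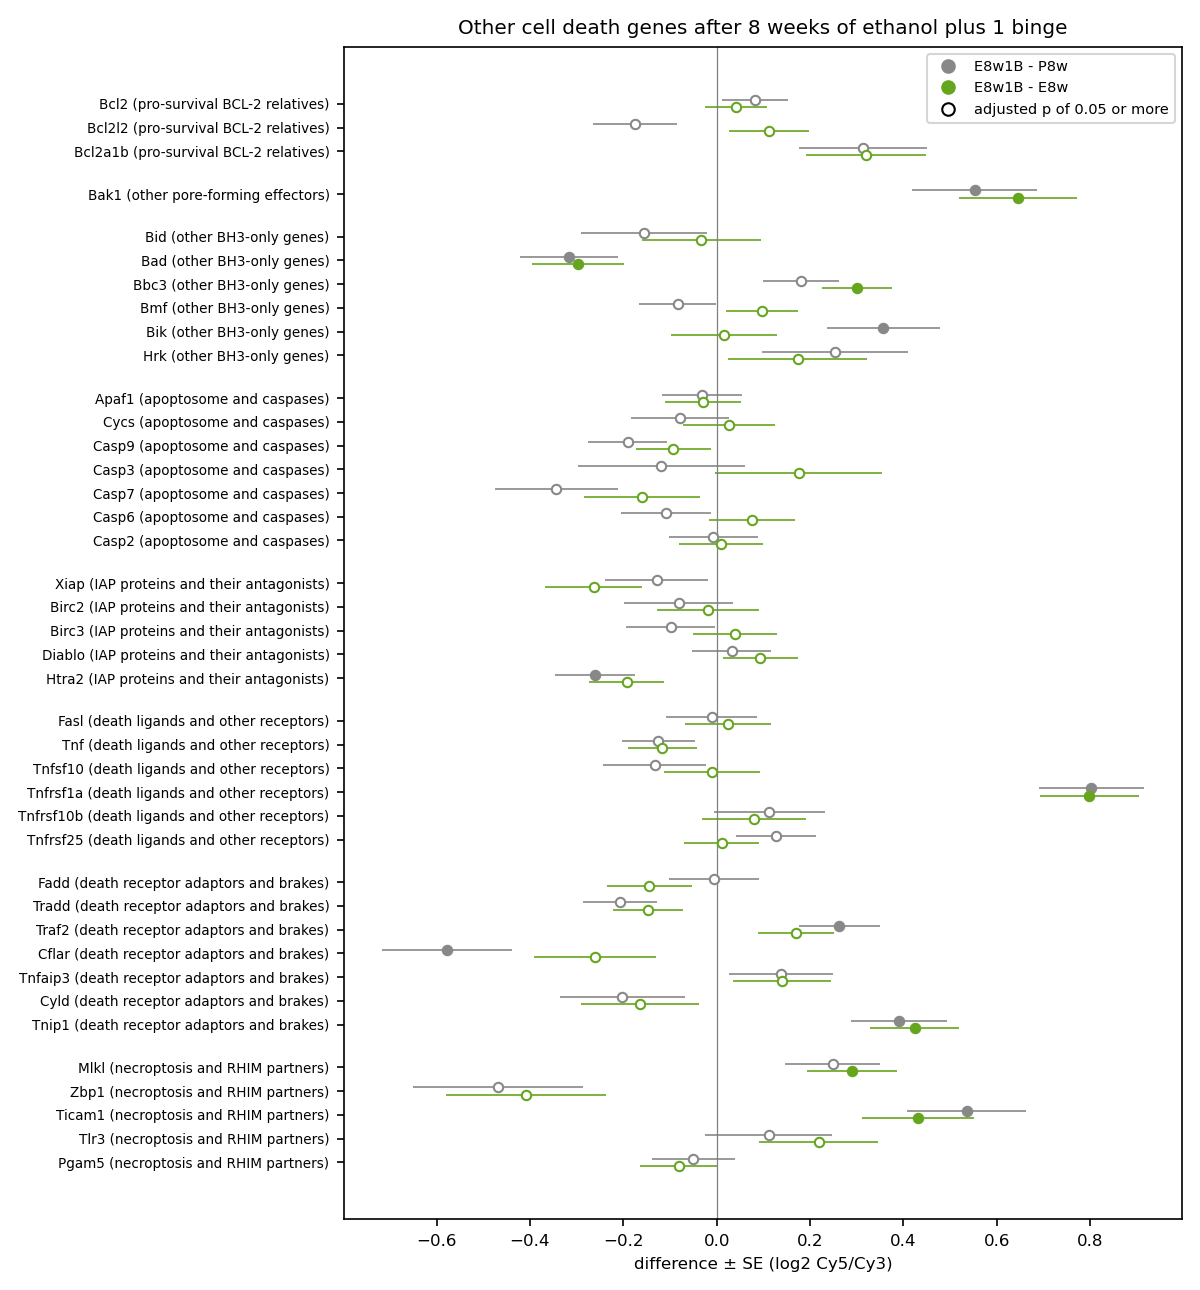
Difference in log2 Cy5/Cy3 (horizontal axis, ± SE) of the 40 further cell death genes for E8w1B minus P8w and E8w1B minus E8w, grouped by list, with filled points for an adjusted p under 0.05. Tnfrsf1a lies farthest to the right (0.80 in both), and Cflar farthest to the left among the filled points (-0.58 against P8w).

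At 10 days, where 7.18% of all genes passed, 1 of the 40 was higher (Tnfrsf1a) and 1 lower. The lower one was Casp6, an executioner caspase, at -0.48 to -0.34 in E10d1B, against 0.22 to 0.59 in P10d (-0.83 ± 0.12, limma adjusted p = 7.98e-05). The 8-week effect on Casp6 differed from the 10-day effect by 0.72 ± 0.15 (adjusted p = 0.00775), a call that was lost with slide as a block (adjusted p = 0.112). For Cflar the 8-week effect was lower by -0.82 ± 0.22 (adjusted p = 0.04, and 0.177 with slide as a block). Diet without a binge moved none of the 40 past limma's test in E8w against P8w, and 4 had an unadjusted p under 0.05.

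The repeated-binge group had 5 of the 40 higher and 3 lower against P8w, 9 and 3 against E8w, and 5 and 6 against E8w1B, where 20.6%, 25.0% and 29.5% of all genes passed, with medians of -0.01, 0.06 and 0.06 beside -0.01 over all genes in each. Hrk, a BH3-only gene, was lower than in all 3: it lay at -0.28 to 0.04 in E8wMB, against 0.25 to 1.08 in E8w1B, 0.37 to 0.94 in E8w and 0.27 to 0.80 in P8w. Its difference from E8w1B was -0.91 ± 0.16 (adjusted p = 0.000254), with Cy5 alone at -0.91 and Cy3 alone at -0.0064. Some other calls of this group went against the liver channel. Traf2 was 0.51 higher than in P8w as a ratio but -1.87 in Cy5 alone and -2.37 in Cy3 alone, and Cycs, which encodes cytochrome c, was -0.43 as a ratio but 0.84 in Cy5 alone and 1.27 in Cy3 alone.

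The livers carried the markers of hepatocytes, with 7 of 7 measured markers well above background on all 24 arrays. Of the other cell types' markers, Gzma was well above background on 6 of 24 arrays, S100a8 on 11, Timd4 on 15, and Lrat and Col1a1 on 23, and the other markers with a kept probe on all 24. Ly6g and Cd68 had no kept probe. In E8w1B against E8w, where 16.4% of all genes passed, markers of endothelial cells divided, with 3 of 7 higher and 3 lower. Of 8 neutrophil markers, 2 were higher and 1 lower, of 7 hepatocyte and of 7 stellate markers 1 was higher and 1 lower, 1 of 9 macrophage and 1 of 5 erythroid markers was lower, and none of the 9 lymphocyte or 5 cholangiocyte markers passed. Summed Cy5 intensity of 6 endothelial markers was 3020 to 5164 in E8w1B, against 3187 to 3631 in E8w and 2813 to 3817 in P8w, and that of 7 neutrophil markers was 2921 to 3741, against 2529 to 3027 and 1873 to 2734.

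In E10d1B against P10d, where Bax rose, 7.18% of all genes passed. There 2 of 7 endothelial, 2 of 7 stellate, 2 of 9 lymphocyte and 1 of 7 hepatocyte markers were higher and none lower. The endothelial sum was 3183 to 3682 in E10d1B, against 2410 to 2665 in P10d. That of 7 lymphocyte markers was 2293 to 2468 in E10d1B, against 1462 to 1737 in P10d. That of 2 hepatocyte markers was 281845 to 312607, against 270626 to 278852. The ranges of the other marker sums overlapped between these groups. In E8wMB against E8w, where Bax also rose, 25.0% of all genes passed. There 2 of 7 endothelial markers were higher and 1 lower, 1 of 8 neutrophil markers was higher and 3 lower, and 2 of 9 lymphocyte markers were higher and 2 lower. Of 6 stellate markers 1 was higher and 1 lower, 1 of 9 macrophage and 1 of 5 erythroid markers was lower, and none of the 7 hepatocyte or 5 cholangiocyte markers passed. Against P8w, where 20.6% of all genes passed, 2 of 7 endothelial, 2 of 8 neutrophil, 2 of 9 lymphocyte and 1 of 5 cholangiocyte markers were higher in E8wMB. Lower there were 2 endothelial, 3 neutrophil, 2 lymphocyte, 2 of 6 stellate, 1 of 8 macrophage and 1 of 5 erythroid markers. In Cy5 alone, across scans, the neutrophil sum was 1971 to 2263 in E8wMB, against 2529 to 3027 in E8w and 1873 to 2734 in P8w. The lymphocyte sum was 1123 to 1535, against 1866 to 3346 in E8w and 1836 to 3358 in P8w. As ratios, the mean log2 Cy5/Cy3 of the lymphocyte markers was -0.11 in E8wMB, -0.11 in E8w and -0.08 in P8w. That of the neutrophil markers was -0.21, -0.04 and -0.22. The part of these cells in the differences of the 9 genes was not tested.

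Across the 14 arrays of E8w1B, E8w and P8w, which share a scan and the reference RNA, the genes most like each of the 9 in log2 Cy5/Cy3 were taken from 13619 genes as a description. Bcl2l1 ran closest to Klf6 (r = 0.97), Cers6 (0.96) and Lamtor3 (0.96). Bax was closest to Eif3c (0.94), Lamc1 (0.93) and Adgrf5 (0.93), and Bcl2l11 to C1qtnf1 (0.95), Phf21a (0.94) and Adam15 (0.94). For Fas the nearest was Lima1 (0.91), for Ripk3 Rbms1 (0.89), for Pmaip1 Esrp1 (0.86), for Mcl1 Dpy19l3 (0.83) and for Ripk1 Bcl2l14 (0.83). The Pmaip1 probe was not well above background in either channel on any of these 14 arrays, so its r rests on near-background signal. Among the 9 themselves, Bax and Bcl2l11 had r = 0.82, Bcl2l1 and Bcl2l11 0.67, Bax and Bcl2l1 0.49, and Bcl2l1 and Fas -0.40.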

How the data were processed

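Total RNA from each liver was measured on 1 Agilent 2-colour array, liver in Cy5 and the common reference in Cy3, in 24 samples of 6 groups taken from the sample titles. The deposited files hold median spot and local background intensity per channel, per the file headers, written by Agilent Feature Extraction 11.5.1.1 per the submitters' processing notes. The authors' log10 ratios of Cy5 over Cy3 and the deposited log2 value table served as alternatives; the table's values follow log2 of the processed Cy5 over Cy3 signals, with no further centring. Processed intensities in the deposited files are background-subtracted and dye-normalized.

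Intensities were corrected with normexp (offset 50) and loess within each array in limma 3.58.1 (R 4.3.3). Spots marked by the scanner software were left out (1.34% to 7.64% per array), no spot was saturated, and spots of a probe were averaged. A probe was kept when at least 3 arrays measured it well above background in Cy5. Array accessions were named through RefSeq GRCm38.p6, which gave 24432 of 41174 probes 1 symbol. Each gene was represented by its brightest kept probe with at least 2 arrays in every group. One limma model of 6 group means over 24 arrays was fitted, with eBayes and Benjamini-Hochberg adjustment over all genes per comparison. The values of each channel alone followed Aquantile normalization. A bound for a dim probe sets the bright group's mean against the higher of the dim probe's signal and the lowest signal well above background per array. The method was tested on simulated data. The number of arrays limits the precision.

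The 9 genes, the pathway lists and the marker lists were chosen with earlier results of these data known. All 9 genes were named in every comparison; of each pathway list, up to 4 genes per comparison with the lowest adjusted p past the threshold could be. Alternatives tried were the background correction, median centring, the scanner's ratio, the deposited values, Cy5 alone, marked spots, the probe filter and probe choice, slide and replicate blocks, the groups in the fit, and each replicate left out.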

Additional observations from a re-analysis of the deposited data

Results flagged for a closer look

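A single array stood apart from the others of its group in 5 of the 34 groups of 4 or 5 arrays that were scanned, where chance gives about 1 in 20, by Dixon's test for the gap to the nearest other array. For Bcl2l1 it was E8w replicate 5, at -0.20 beside -1.02 for the nearest array. Its Cy5 value of 8.98 lay within the 8.48 to 9.20 of the other E8w arrays, while its Cy3 value of 9.17 was below their 9.66 to 10.28. P8w replicate 1 and E8w1B replicate 4, on the same slide, had the lowest Cy3 values of their groups (9.03 and 9.46). For Fas it was E8w1B replicate 1, at -0.80 beside -0.06, and P8w replicate 2, at -0.50 beside 0.02. For Bcl2l11 it was E8w1B replicate 1, at -0.078 beside 0.35, and for Casp8 it was E8w replicate 1, at -0.034 beside 0.13.

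The effect of ethanol plus 1 binge on Bcl2l1 differed between 8 weeks and 10 days by 1.96 (limma adjusted p = 0.00307). At 8 weeks 5 of 5 E8w1B arrays were above all P8w arrays, and at 10 days 2 of 3 E10d1B arrays were below all P10d arrays.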

How the results depend on the processing

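Of 274 recomputed values of the 12 called differences, 237 kept their sign and call, 34 kept the sign and lost the call, and 3 changed sign; of 1537 values of the differences that were not called, 62 changed sign without a call and 34 became calls. The 3 changes of sign came from Cy5 alone, where Bcl2l1 was -0.19 in E8wMB against P8w and -0.036 against E8w and Fas was -0.10 against E8w1B. There Ripk1, not called as a ratio with loess, also turned sign, to 0.54, 0.70 and 0.63 against P8w, E8w and E8w1B. Cy5 alone called 0 of the 9 genes in E10d1B against P10d (2.69% of all genes) and 1 in E8w1B against E8w (8.70%). It called 4 in E8wMB against P8w (50.5%), 4 against E8w1B (52.6%), and 1 (Mcl1) in P8w against P10d (8.35%). With median centring in place of loess, 0 of the 9 were called in E10d1B against P10d, where 259 of 15691 genes were higher and 99 lower. In E8wMB against E8w1B it called 4 of the 9, where 1566 of 15562 genes were higher and 3845 lower. Of all genes called in E8wMB against E8w1B, 40.5% were higher with loess, 28.9% with median centring and 56.5% with the scanner software's log ratio; against E8w the shares were 40.5%, 31.8% and 55.9%, and against P8w 38.7%, 31.2% and 53.4%. In E8w1B against E8w 48.8% were higher with loess and 62.4% with median centring, and in E10d1B against P10d 59.8% and 72.3%. In E8w1B against P8w, 3 of the 9 were called with no background subtraction, where 1319 of 15743 genes were higher and 1574 lower. In the same comparison 3 were called with slide as a random block (correlation 0.12), 2 with only the groups compared and 2 with the replicate block. The share of all genes called was not counted for these last fits, nor for the settings that follow. Fitting only the groups compared left 1 in E8wMB against E8w1B. With marked spots kept, which changes the Bcl2l1 probe, 0 were called in E8w1B against P8w, 1 in E8wMB against E8w and 0 in the difference of the 8-week and 10-day effects. With the same probe kept, a setting chosen after seeing the data, no call changed.

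Leaving out 1 array at a time gave 1 to 3 genes in E8w1B against P8w, 2 to 3 against E8w, 1 to 3 in E8wMB against P8w, 2 to 3 against E8w and 1 to 3 against E8w1B. The share of all genes called was not counted in these fits. In the main fit it was 16.3%, 16.4%, 20.6%, 25.0% and 29.5% in the same order. Some same-numbered samples also shared a slide, as replicates 1, 2 and 3 of E8w and E8w1B did, so the replicate block was partly a slide block. The correlation of the deviations of same-numbered samples was 0.016 to 0.27 over the 5 pairs of E8w1B and E8w. Over the 4 pairs of E8w1B and P8w it was -0.23 to 0.27. The replicate block gave Bcl2l1 1.26 in E8w1B against P8w and 1.84 for the difference of effects, and 2 genes called in place of 1 in E8w1B against P8w. A fixed slide block could not be fitted for comparisons across scans. Depth of signal limits Pmaip1, and 2 P8w arrays limit Casp8. The counts for E8wMB above include Pmaip1 in some settings, and its calls there are not independent of the probe filter.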

Other observations

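Within E8wMB the 4 arrays fell apart in several of the genes. On the probe of each gene used for the tests, arrays 1 and 3 were at 0.35 and 0.47 for Bcl2l1 and at -0.18 and 0.13 for Bcl2l11, and arrays 2 and 4 at -0.36 and -0.30 for Bcl2l1 and at -0.88 and -0.80 for Bcl2l11. For Fas the order turned, with arrays 1 and 3 at 0.12 and 0.08 and arrays 2 and 4 at 0.60 and 0.58. Arrays 1 and 2 shared a slide, as did arrays 3 and 4.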
